A study of Mus musculus with 249 samples.

Results

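The region examined here was the stretch of mouse chromosome 15 (chr15) that holds Myc and Pvt1 and the gene-poor sequence on both sides of them, in the assembly mm9. It was taken as all 40 kb windows between 60 and 64.5 Mb, which gave 112 windows (chr15:60000001-64480000) of the 68162 windows listed for the whole genome. Myc (61816946 to 61821929, + strand) lay inside 1 window, chr15:61800001-61840000, called the Myc window below. Pvt1 (61869542 to 62209651, + strand) overlapped 10 windows, from 61840001 to 62240000.

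Genome architecture mapping (GAM), in which DNA from thin slices of nuclei is sequenced and loci found together in a slice are counted, was carried out on mouse embryonic stem cells of the line 46C (strain 129/Ola, derived from E14tg2a, with GFP at the Sox1 locus) in 249 libraries. All of them came from cells grown with serum and LIF and then moved to serum-free ESGRO medium before harvest, and thin cryosections were cut by laser into tubes that held 4 profiles each by the titles, whereas the series description gives a lower average. They belonged to 11 experiments with 20 groups. The reagent volumes experiment used protocol A (10 libraries), B (11) or C (10) of the amplification reaction, the proteinase K experiment volumes titled 1 ul (5) and 2 ul (6), and the PCR experiment 25 (3), 23 (5) or 20 (4) cycles. Libraries were frozen (10) or unfrozen (11) after incubation in one freezing experiment and frozen early (12) or late (11) in the other, stained with cresyl violet (16) or left unstained (10), or amplified with kits titled small (12) and large (11). The full collection (54) and the unstained arms of tests of propidium iodide (20), eosin (18) and SYBR Gold (10) had no second arm in the table, and for SYBR Gold the protocol describes staining although the titles say unstained. No label ties libraries to separate cultures, so every error and p-value below measures the spread between these libraries, which may be technical. Experiment, plate and protocol cannot be told apart across experiments.

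Myc encodes a transcription factor that drives growth and proliferation, and in embryonic stem cells it is part of the program that supports self-renewal. Pvt1, its downstream neighbour, gives rise to a long non-coding RNA and is a frequent site of viral integration and rearrangement in tumours. Genes in deserts of this kind are often controlled by enhancers that lie far away in the surrounding sequence, and the protein CTCF, together with cohesin, anchors many of the loops and domain borders through which such contacts are organised.

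GENCODE placed 19 genes of any type in the region, of which 10 were protein-coding, or 2.23 per Mb against 7.70 per Mb on chr15 as a whole. Upstream of Myc were Fam84b and A1bg, which encodes a plasma glycoprotein, with the lincRNA 9930014A18Rik beside Fam84b. From A1bg to Myc the annotation named only the snoRNA gene SNORA42, and from Pvt1 to Gsdmc only the miRNA AC134453.1, the snoRNA SNORA17 and the snRNA U7. The downstream end held Gsdmc, Gsdmc2, Gsdmcl1, Gsdmc3 and Gsdmc4, whose family encodes pore-forming gasdermins, then Fam49b, which encodes a regulator of the actin cytoskeleton, and Asap1, which encodes a GTPase-activating protein for Arf. H2afy3, a pseudogene, lay within Pvt1.

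The genome sequence of the windows on which the results turn was read from mm9. The first pair below is the 250 bases just before the annotated starts of Myc and Pvt1 (61816696 to 61816945 and 61869292 to 61869541, both + strand), shown because these are the starts that the viewpoint windows contain, with CG dinucleotides in capitals. They held 14 and 15 CG dinucleotides at a GC content of 60.4% and 66.8%, whereas the 40 kb Myc window as a whole had 44.8% GC and the region a mean of 40.9%. The second pair is the matches to the CTCF consensus motif, searched on both strands of the whole genome, with the matched bases in capitals. These were the only matches in the region, so 1.79% of its windows held one against 9.08% of chr15 windows and 9.37% of autosomal windows. Each is printed at the middle of a stretch of 30 bases. The first stretch (61814978 to 61815007, + strand) lay in the Myc window, with its middle 1954 bases upstream of the Myc start. The second (63603326 to 63603355, - strand) lay beside Gsdmc. A match is a description of letters and shows no binding.
Before Myc: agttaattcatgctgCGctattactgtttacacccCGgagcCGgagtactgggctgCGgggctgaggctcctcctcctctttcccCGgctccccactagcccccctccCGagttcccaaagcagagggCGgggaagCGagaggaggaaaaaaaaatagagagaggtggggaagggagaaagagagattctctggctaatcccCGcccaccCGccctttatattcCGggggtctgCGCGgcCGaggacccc
Before Pvt1: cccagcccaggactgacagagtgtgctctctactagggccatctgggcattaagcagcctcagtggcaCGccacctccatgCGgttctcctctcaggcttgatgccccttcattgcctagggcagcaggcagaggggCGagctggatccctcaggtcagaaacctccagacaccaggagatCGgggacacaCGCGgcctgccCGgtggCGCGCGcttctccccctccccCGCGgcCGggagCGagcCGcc
CTCF match near Myc: ctctgtggCCAGTAGAGGGCACacttactt
CTCF match near Gsdmc: aattgtcgCCAGCAGATGGCAGcattgtcc

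The Myc window was the most often detected window of its region. It was positive, that is, covered by enough reads to be called present, in 73 of 249 libraries (29.3%, 95% Wilson interval 24.0 to 35.3%, which covers counting error only). The next most often detected window of the region was positive in 65 libraries, the median window in 48 and the least detected in 35. Only 1.28% of the 59030 autosomal windows positive in at least 25 libraries were found in as many libraries as Myc or more, and other autosomal windows with the GC content of the Myc window were positive in 53.8 libraries on average. Windows over Pvt1 were also above the chr15 median of 48 libraries, with 54 to 65 positive libraries and a mean of 60.9, against 52.4 for other autosomal windows of their GC content. A run of 19 windows from 61560001 to 62320000, with Myc and all of Pvt1 inside it, lay above that median without a gap. Of the 73 libraries with Myc, 48 held the next window upstream, 51 the next downstream, and 71 at least 1 window of Pvt1. Depth is unknown because the table holds calls and no reads, so a negative call may mean absence or too few reads.

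**Figure D1:**
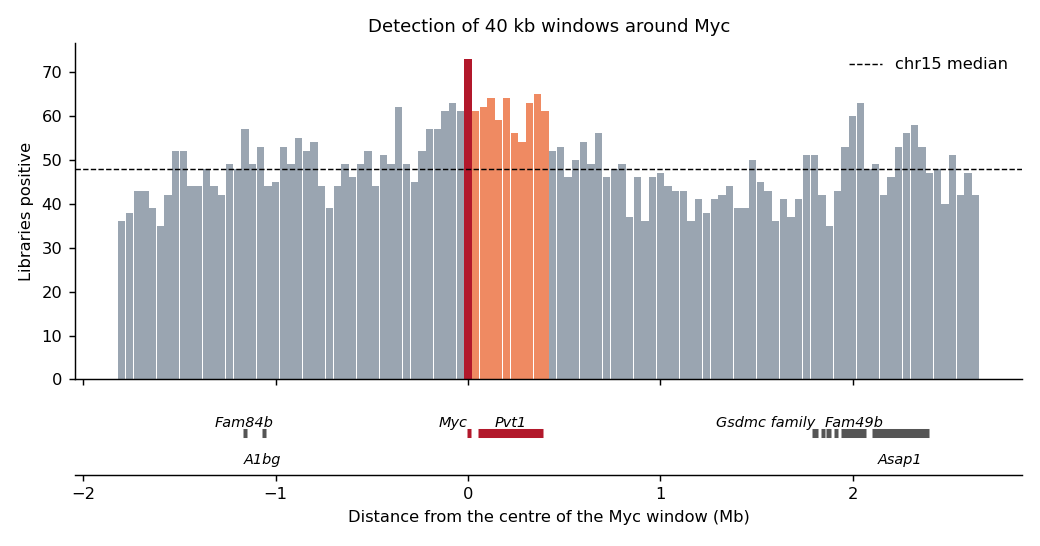
Bars give the number of libraries, of 249, in which each 40 kb window was positive, against distance from the Myc window (Mb), with the Myc window in red, Pvt1 windows in orange and the chr15 median as a dashed line. The Myc bar reaches 73, the Pvt1 bars lie between 54 and 65, and the downstream desert falls to 36.

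Linkage was measured as D′, the normalized excess of libraries that hold both windows over the number that independent windows would give, where 0 is independence and 1 the largest excess the detection of both windows allows. Each D′ was set against the mean of all chr15 pairs at the same distance, and the difference is called the excess, with a jackknife standard error (SE) over libraries. The Myc window was more linked to both sides of the desert than chr15 pairs of equal distance. Upstream, over 40 windows 0.2 to 1.76 Mb away, the mean D′ was 0.487 ± 0.058, an excess of 0.16 ± 0.06 (95% interval 0.049 to 0.268). Downstream, the mean D′ was 0.554 ± 0.056 and the excess 0.23 ± 0.05 (0.120 to 0.332). Of the chr15 windows treated in the same way, 99.5% of 2462 had a lower excess than Myc upstream and 99.9% of 2467 downstream. Downstream exceeded upstream by 0.067 ± 0.051, with an interval of -0.033 to 0.167, so the sides were not called different. Without the reagent volumes experiment the difference was 0.107 ± 0.051 and its interval left out 0.

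The excess of both sides was lower without the libraries of the full collection. Without them the upstream excess was 0.104 ± 0.063, no longer past the threshold, and the downstream excess 0.172 ± 0.062, whereas in the full collection alone they were 0.428 ± 0.106 and 0.471 ± 0.072. The spread of the excess over chr15 windows was also larger there, with an SD of 0.183 against 0.055 in all libraries. Since D′ can be large when one window of a pair is detected more often than the other, the phi correlation of the calls was used as well. By phi the excess was 0.073 ± 0.036 upstream and 0.119 ± 0.035 downstream, and 93.1% and 99.1% of chr15 windows lay below Myc. Across 2467 chr15 windows the number of positive libraries and the mean excess of both sides had a Spearman rho of 0.133, where all windows share the same libraries, and among the 240 windows positive in 60 or more libraries 99.2% had a lower excess than Myc. The part of detection in the Myc excess was not tested.

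**Figure D2:**
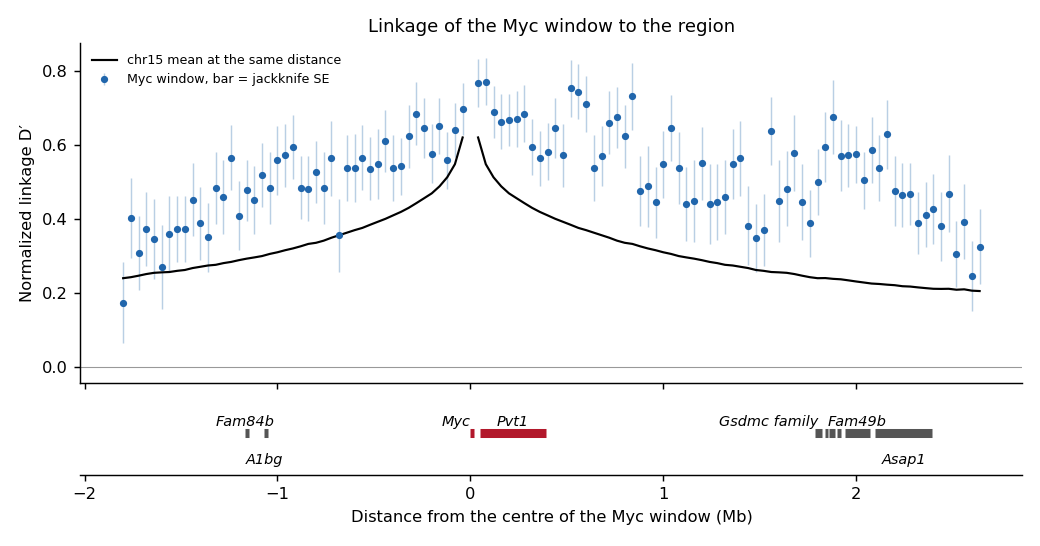
Points give D′ of the Myc window with every other window of the region, with jackknife standard errors over 249 libraries, against distance from the Myc window (Mb). The black line is the mean of chr15 pairs at the same distance. From 0.2 to 1.76 Mb, 39 of 40 points upstream and 40 of 40 downstream lie above it.

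Downstream, the interval of the excess left out 0 in each of the 5 distance bins, whereas upstream it did so in the middle bins and not in the nearest and the farthest. At 40 to 160 kb the downstream D′ was 0.724 ± 0.050, an excess of 0.180 with an interval of 0.085 to 0.276, while the upstream excess of 0.094 had an interval that reached below 0 (-0.018 to 0.207). At 600 to 960 kb the excess was 0.173 ± 0.064 upstream and 0.251 ± 0.063 downstream. At 1.4 to 1.76 Mb, the farthest bin, it was 0.108 ± 0.076 upstream, with an interval of -0.040 to 0.256, and 0.208 ± 0.067 downstream. No distance bin had an interval for downstream minus upstream that left out 0. Of the 40 upstream pairs, 15 (37.5%) were over 2 SD above the mean of their distance, and of the 40 downstream pairs 24 (60%), against a background of 2.64% of 99380 chr15 pairs. These pairs share the Myc window and are not independent of each other.

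By annotated block, Myc was most linked by D′, relative to distance, to the gasdermin cluster. The 4 windows of Gsdmc to Gsdmc4 had a mean D′ with Myc of 0.586 ± 0.073 and an excess of 0.346 ± 0.072 (0.205 to 0.488), and all 4 were over 2 SD, against 2.84% of chr15 pairs at the distances of that block. The 12 windows of Fam49b and Asap1 followed with an excess of 0.281 ± 0.059, again with all 12 over 2 SD (background 2.7%). The downstream desert between Pvt1 and Gsdmc had 0.232 ± 0.057 over 34 windows, all above the mean, of which 21 were over 2 SD (background 2.71%). The windows of Pvt1 and those of Fam84b to A1bg both had an excess of 0.186, with 4 of 10 (background 2.14%) and 2 of 3 (background 2.63%) over 2 SD. The upstream desert had 0.162 ± 0.054 over 26 windows, 9 of them over 2 SD (background 2.47%). Beyond Asap1 the excess was lower than in the other downstream blocks, 0.144 with an interval of 0.002 to 0.286, and 2 of 6 windows were over 2 SD (background 2.56%). The stretch before Fam84b had the lowest excess, 0.117 with an interval of -0.020 to 0.255 and 4 of 16 windows over 2 SD (background 2.75%). The intervals of these blocks overlapped, and differences between them were not tested. Blocks were ranked by D′ only, and the gasdermin windows were positive in 35 to 51 libraries against 73 for Myc. Scored by phi, the window of Gsdmcl1 and Gsdmc3 was at 2.72 SD and the window 63960001 to 64000000 in Asap1 at 3.14 SD.

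Among single windows 0.2 Mb or more from Myc, 9 downstream and 0 upstream partners had no chr15 pair of equal distance above them. The region reached 1800 kb upstream of Myc and 2640 kb downstream, so these counts cover unequal ranges. The downstream ones at 1880, 2080, 2120 and 2160 kb had no upstream counterpart. The 3 partners with the highest scores are described first. The window of Gsdmcl1 and Gsdmc3 (63680001 to 63720000) was positive in 35 libraries and 27 of these also held Myc, which gave a D′ of 0.677 ± 0.099 against a chr15 mean of 0.239, or 4.96 SD. The window 63960001 to 64000000 in Asap1 shared 31 of its 42 libraries with Myc, with a D′ of 0.629 ± 0.093 and 4.64 SD. The window 62640001 to 62680000, 840 kb downstream with no gene, shared 30 of 37 libraries, with a D′ of 0.732 ± 0.090 and 4.30 SD. Upstream, the highest were 60560001 to 60600000 (34 of 49 libraries, 3.09 SD), 60880001 to 60920000 (35 of 49, 2.95 SD) and 60840001 to 60880000 (37 of 53, 2.74 SD), none of which overlapped a gene. These 6 were selected as the highest of the profile, and their scores depended on the measure and the libraries. By phi the downstream scores were 2.72, 3.14 and 2.13 SD, in the order given, so that the Asap1 window came first, and the upstream scores were 2.25, 2.04 and 2.16 SD. In the full collection alone all 6 were under 2 SD, at 1.55, 1.37 and 1.86 SD downstream and 1.57, 1.36 and 1.58 SD upstream. Spread over chr15 windows was larger there, with an SD of the mean upstream excess of 0.183 against 0.055 in all libraries. The mean excess of Myc was also higher there (upstream 0.428 against 0.159, downstream 0.471 against 0.226). A lower score in those libraries does not by itself mean less linkage. Without the full collection the downstream scores were 3.97, 3.70 and 3.16 SD, whereas upstream 60560001 to 60600000 and 60840001 to 60880000 fell under 2 SD, to 1.98 and 1.70 SD. The lowest were 60000001 to 60040000, at the upstream end of the region, which shared 15 of 36 libraries (D′ 0.175, -0.74 SD), and 64400001 to 64440000 (22 of 47, D′ 0.247, 0.47 SD). The window at the downstream end, 64440001 to 64480000, shared 22 of 42 libraries (D′ 0.326, 1.42 SD).

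Myc also stood high in linkage over longer distances on its own chromosome. Its mean D′ was 0.234 with chr15 windows 4 to 10 Mb away, where the average chr15 window had 0.146 and 99.6% of them were lower, 0.184 at 10 to 20 Mb, against 0.125 with 95.1% lower, and 0.184 at 20 to 41 Mb, against 0.113 with 99.0% lower. With 56519 windows of other autosomes the mean D′ was -0.013, against 0.013 for the average chr15 window, and only 15.0% of chr15 windows were lower than Myc there. The chr15 windows over 4 Mb away with the most similar calls were 97080001 to 97120000 in Fam113b (37 of 62 libraries shared, phi 0.384), 90200001 to 90240000 (27 of 39, phi 0.378) and 55880001 to 55920000 (31 of 51, phi 0.351), selected from 2310 windows. On other autosomes the closest were chr13:6280001-6320000 (phi 0.320), chr10:113400001-113440000 (phi 0.292) and chr1:33320001-33360000 (phi 0.285), and none of these overlapped a protein-coding gene.

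Pvt1 was linked above the chr15 mean on both sides as well, and its sides were not called different. Averaged over its 10 windows, the excess was 0.117 ± 0.034 upstream (0.050 to 0.185) and 0.130 ± 0.035 downstream (0.061 to 0.199), and the difference of 0.013 ± 0.029 had an interval of -0.043 to 0.069. Single Pvt1 windows ranged from 0.055 (61960001 to 62000000) to 0.179 (62120001 to 62160000) upstream and from 0.082 (62040001 to 62080000) to 0.193 (61920001 to 61960000) downstream. Of the 800 pairs of Pvt1 windows at these distances, 170 (21.2%) were over 2 SD, beside the same background of 2.64%. Myc and the 10 Pvt1 windows were themselves linked at D′ values from 0.565 (62160001 to 62200000, 45 shared libraries) to 0.772 (61880001 to 61920000, 52 shared libraries). The high excess was shared by the neighbourhood, since 42 of the region's windows were in the top 5% of chr15 by the mean excess of both sides. The window next to Myc upstream, 61760001 to 61800000, was slightly above it downstream (0.240 against 0.226) and over both sides (0.1932 against 0.1923). Upstream, 9 region windows were above Myc, among them 62120001 to 62160000 in Pvt1. Differences between these windows were not tested.

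Whether Myc separates the sides of the desert was asked from pairs that did not include the Myc window. Pairs of region windows on opposite sides of Myc, 0.2 to 1.76 Mb apart, had a mean excess of 0.139 ± 0.029 over 940 pairs. Pairs on one side of it had 0.056 ± 0.024 over 2480 pairs, and the values upstream (0.052) and downstream (0.058) were close to each other. The difference of 0.083 ± 0.019 (0.045 to 0.121) left out 0, so windows across Myc were linked more, not less, than windows at the same distance on one side. The same layout drawn around 2411 chr15 windows gave a lower difference at 99.1% of them. In the full collection alone the difference was 0.087 ± 0.043, and 85.0% of windows were lower. Over the whole region, 513 of 3500 pairs (14.7%) were over 2 SD above the mean of their distance, beside the background of 2.64%.

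The pairs with the highest scores all had one window at most 360 kb upstream of Myc or at Myc and the other far downstream. The first was 61440001 to 61480000 with 62640001 to 62680000, 1200 kb apart, where 32 of the 37 libraries with the second window held the first (D′ 0.820 ± 0.075, 5.80 SD). The Gsdmcl1 and Gsdmc3 window formed 3 of the 5 highest pairs, with 61720001 to 61760000 (27 of 35 libraries, 5.27 SD), with Myc (4.96 SD) and with 61760001 to 61800000 (26 of 35 libraries, 4.91 SD). The fifth pair, 61760001 to 61800000 with 62640001 to 62680000, had a D′ of 0.785 ± 0.080 and 4.86 SD. No chr15 pair of equal distance was above any of these 5. They overlap in their windows and so are not independent, and they were selected as the highest. Each included 62640001 to 62680000 or 63680001 to 63720000, which were positive in 37 and 35 libraries. Scores by phi were made only for pairs with Myc, where these windows were at 2.13 and 2.72 SD.

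**Figure D3:**
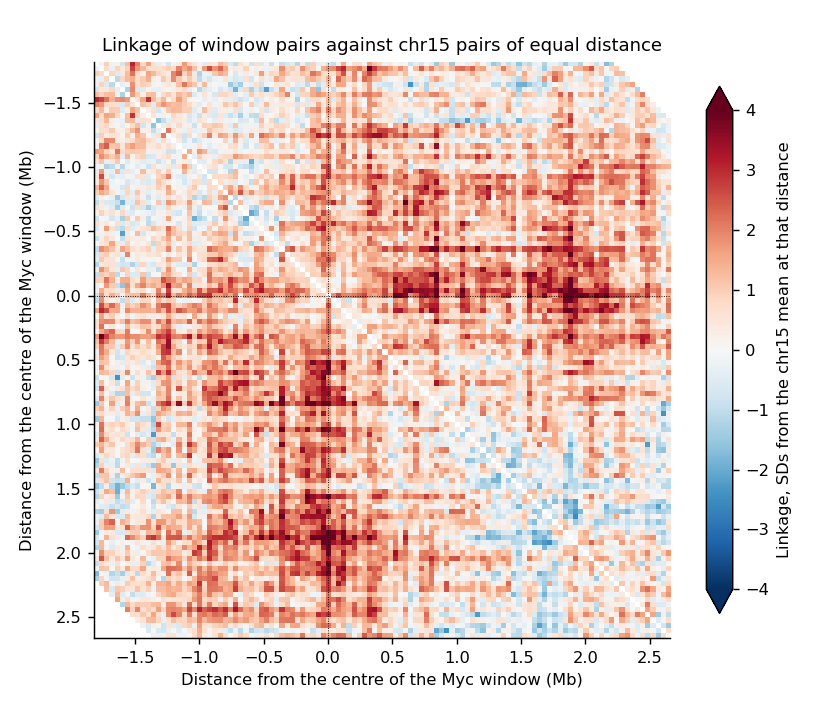
Colours give linkage of each pair of region windows in SDs from the mean of chr15 pairs at the same distance (red above, blue below, limits of 4 either way), with both axes as distance from the Myc window (Mb) and dotted lines at Myc. Every pair above 4 has the same colour. The 5 highest pairs join windows at or just upstream of Myc with the windows 840 and 1880 kb downstream of it, while pairs within the downstream part of the desert are pale or blue.

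The insulation score, the mean D′ between the 400 kb on either side of a window, is low at borders between domains. At Myc it was high. The Myc window scored 0.513 ± 0.035, or 2.21 ± 0.70 SD above the chr15 mean of 0.408, and 98.0% of 2498 chr15 windows were lower. The highest score of chr15 was inside Pvt1, at 62000001 to 62040000 (0.569, 3.38 SD), and 26 consecutive windows from 61320001 to 62360000 were over 2 SD, the longest such run on the chromosome. The region held these 26 of its 112 windows over 2 SD, against 2.8% of all chr15 windows. The size of the square mattered, as the Myc window was at 1.07 ± 0.72 SD with 200 kb and 3.24 ± 0.70 SD with 800 kb, and in the full collection alone it was at 1.42 ± 0.65 SD.

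Local minima of the score with a prominence of at least 0.5 SD gave 4 boundaries among the 112 windows, while 4.28% of chr15 windows were called. The lowest was at 63600001 to 63640000, the window of Gsdmc that holds the second CTCF match, with -0.88 ± 0.92 SD and a prominence of 1.52. The second was at 60840001 to 60880000 in the upstream desert, with 0.34 ± 0.76 SD and a prominence of 1.41. The dips at 62680001 to 62720000 and at 61760001 to 61800000, the window next to Myc on the upstream side, were shallow (prominences 0.58 and 0.57), and only 4.67% of the 107 chr15 boundaries were less prominent than the one beside Myc. That dip remained 2.18 ± 0.71 SD above the chr15 mean. No boundary was called within 1 window of Myc by phi, with a square of 800 kb, at a prominence of 1 SD, in the full collection alone, or when the libraries of the cresyl violet, early freezing, freezing after incubation, full collection or propidium iodide experiment were left out.

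**Figure D4:**
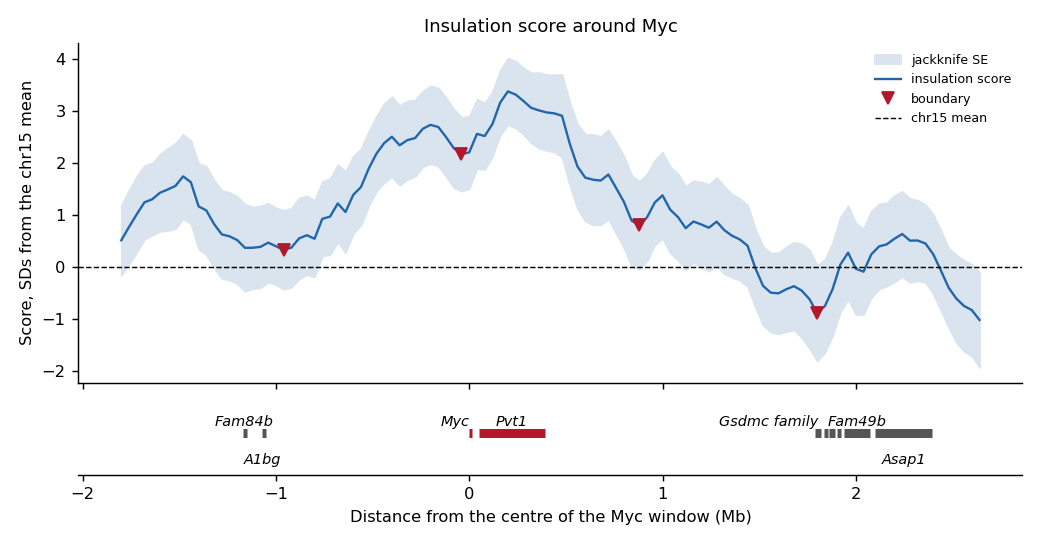
The line gives the insulation score in SDs from the chr15 mean against distance from the Myc window (Mb), with the jackknife standard error shaded and boundaries as triangles. The score peaks at 3.38 within Pvt1, dips to 2.18 beside Myc and falls to -0.88 at Gsdmc.

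Detection of Myc gave no resolved order of the groups. The share of libraries with the Myc window ran from 0 of 10 in reagent volumes protocol A and 0 of 3 in 25 PCR cycles to 6 of 12 in early freezing (frozen early) and 5 of 10 in the SYBR Gold test. In between were 3 of 18 in the eosin test, 1 of 6 with proteinase K at 2 ul, 2 of 11 with the large kit and with protocol B, and 2 of 10 with protocol C. Next came 4 of 16 with cresyl violet stain, 1 of 4 with 20 cycles, 3 of 11 both in unfrozen libraries and in those frozen late, 3 of 10 in frozen libraries, and 17 of 54 (31.5%) in the full collection. The share was 40% in unstained cresyl violet libraries (4 of 10), the propidium iodide test (8 of 20), proteinase K at 1 ul (2 of 5) and 23 cycles (2 of 5), and 5 of 12 with the small kit. All neighbours in this order had overlapping Wilson intervals, which sorting by share makes likely, and the interval for protocol A reached 27.8%. Over the 11 experiments the Myc call did not vary detectably (permutation test of the F statistic, F = 0.991, p = 0.452). Pvt1 windows were positive at a mean of 21.7% in the full collection, from 7% in protocol A to 45.8% in early freezing (frozen early).

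Over the whole region, a library had a median of 9.82% of the windows positive, from 0 in 66 libraries to 96.4%, and 37 libraries held at least 50% of them.

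**Figure D5:**
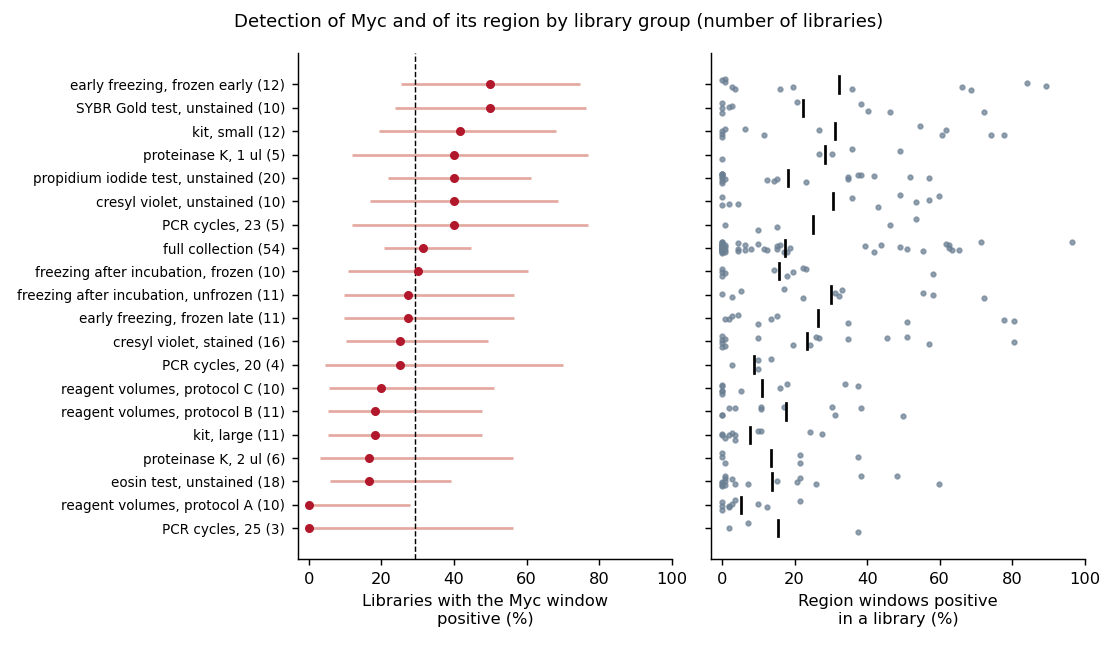
Left, the percent of libraries with the Myc window positive in each of 20 groups with 95% Wilson intervals, and the share in all libraries as a dashed line. Right, the percent of region windows positive in each library (points) and the group mean (black bars); the highest group mean is 32.3%, and libraries spread from 0 upward.

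Region detection was compared with the rest of chr15 in the same library so that coverage cancels. The region was at 19.5% ± 23.4 (SD, n = 249) and the rest of chr15 at 19.02%, a difference of 0.504 ± 1.18 percentage points (SE), and 99 libraries were higher in the region (two-sided sign-flip permutation test, p = 0.671). The difference did not vary detectably over the 11 experiments (permutation test of the F statistic, F = 0.866, p = 0.565). Mean differences ran from -6.10 points in reagent volumes (n = 31) to 4.89 in freezing after incubation (n = 21). None of the 11 contrasts between arms of an experiment reached an adjusted p of 0.05 in two-sided permutation tests, exact where an arm had fewer than 10 libraries, and 0 had an unadjusted p under 0.05. With the plain percent of region windows 1 contrast did (permutation p = 0.030), and none passed adjustment. For 20 minus 23 PCR cycles, a difference of -5.49 points, leaving out replicate 1 of the 23-cycle libraries gave -13.8 points (exact permutation p = 0.029, unadjusted), again with none past adjustment. By mean region minus chr15 detection, the largest difference was proteinase K at 2 ul minus 1 ul, -6.40 ± 14.5 (SD, n = 6) against 9.99 ± 11.5 (SD, n = 5), or -16.4 points (exact permutation p = 0.082, adjusted 0.493). The volumes of that contrast are those of the titles, and the protocol text gives smaller ones, in the same order. The plain percent put large minus small kit first, at -23.46 points (-8.58 against chr15), before proteinase K at -14.85. With medians, 20 minus 23 PCR cycles was at -13.43 and proteinase K at -13.41. Protocol B minus protocol A was 9.05 points (p = 0.090 by permutation, adjusted 0.493), and all 10 libraries of protocol A were below 0.

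Single windows were tested over the whole table with Fisher's exact test. Between cresyl violet stained and unstained libraries, the Myc window was positive in 4 of 16 and 4 of 10 (p = 0.664 by Fisher's exact test, adjusted 1), and no window of the region or of the table passed the adjusted threshold. At an unadjusted p under 0.05 there were 3 of 111 region windows, all less often positive in stained libraries, or 2.70%, beside 2.61% of all 59680 windows tested. The lowest was 62320001 to 62360000, just after Pvt1, with 1 of 16 against 5 of 10 (exact p = 0.018). Between the full collection and all other libraries, Myc was positive in 17 of 54 and 56 of 195 (exact p = 0.736), and no window in the table passed after adjustment. There, 1 of 112 region windows (0.893%) had an unadjusted p under 0.05, against 6.59% of the 63543 windows tested, and it was 64120001 to 64160000 in Asap1 (7 of 54 against 51 of 195, exact p = 0.046). For the 10 windows of Pvt1 the lowest p values were 0.069 with stain and 0.074 in the full collection.

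Across all windows of the table, libraries were positive at 3.40 to 45.2% with a median of 17.1%, and 5 libraries were under 5%. No pair of libraries had the same calls, and the highest phi between any 2 of them was 0.121.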

How the data were processed

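The authors aligned reads to mm9 with Bowtie2, removed PCR duplicates with Samtools and called 40 kb windows positive with GAMtools at a read threshold of 4. These calls were deposited as a score of 0 or 1, with no reads, for libraries that had passed quality control, and 0 columns had no sample.

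Windows positive in at least 25 of 249 libraries were used, and this set was kept when libraries were left out. D′ was computed for pairs up to 4 Mb apart, and the excess is D′ minus the chr15 mean at that distance. Standard errors came from a delete-one jackknife over libraries and 95% intervals from 1.96 SE. A difference was called where its interval left out 0. Insulation used a square of 400 kb. Permutation tests drew 100000 resamples, exact where an arm had fewer than 10 libraries, with Benjamini-Hochberg adjustment over 11 contrasts. Fisher's exact test took windows positive in at least 3 compared libraries, adjusted over the table. Genes were from GENCODE vM1, whose genome matched the table in the lengths of all 19 autosomes.

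The text names all protein-coding genes of the region, Pvt1 and other named genes, the Myc and Pvt1 windows, the region ends, the 3 highest and the lowest partners of Myc per side, the 5 highest pairs and the 3 closest distant windows. Members, lists and tests were chosen with earlier results of these data known. Calculations used Python 3.11.15 with numpy 2.4.6, scipy 1.17.1 and pandas 2.3.3 and were tested on simulated data.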

Additional observations from a re-analysis of the deposited data

Results flagged for a closer look

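A library lay far from the other libraries of its group in 2 of 18 checks (groups of 4 to 10 libraries, for region minus chr15 detection and for the plain percent of region windows), by the gap to its nearest neighbour relative to the range of the group. The nominal rate of such gaps by chance, about 1 in 20 checks, was not tested on these values. They are skewed, as 66 of 249 libraries had 0 region windows. In the PCR experiment with 23 cycles, replicate 1 had a region minus chr15 difference of -33.3 points, while the other 4 libraries lay between 2.86 and 12.7 points. Only 0.893% of region windows were positive in it, with 24.5% of all windows. In the libraries frozen after incubation, replicate 2 had 58.0% of the region windows positive, while the other libraries lay between 0 and 23.2%. It had 20.6% of all windows positive.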

How the results depend on the processing

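The excess of Myc downstream and the difference across Myc kept their direction and stayed past the threshold under every alternative run. The upstream excess lost its call once, at 0.104 without the full collection, and over experiments left out it ran from 0.104 to 0.195. Downstream minus upstream became a call once, at 0.107 without the reagent volumes experiment, and ran from 0.0442 to 0.107. The Pvt1 difference, never called, turned to -0.0124 by phi and ran from -0.0038 to 0.0369 over experiments left out. The insulation score of Myc moved to 1.07 SD with a 200 kb square, 3.24 SD with an 800 kb square and 1.42 SD in the full collection alone, an alternative chosen after seeing the data, as was the rank of Myc by phi. Boundaries numbered 9 with the 200 kb square and 2 with the 800 kb square, at a prominence of 1 SD and in the full collection alone, and 2 to 5 over experiments left out. Region minus chr15 detection, not called in any setting, turned to -0.0995 points with windows positive in at least 25 libraries only and to -0.187 against windows of equal GC content, and ran from -0.234 to 1.44 over experiments left out. The Myc pair at 2600 kb downstream turned to -0.0238 SD by phi and ran from -0.0995 (without the full collection) to 0.965. The pair at 1800 kb upstream turned to 0.149 in the full collection alone. There the 6 highest pairs were under 2 SD, while the spread over chr15 windows was larger. Of the contrasts, none of them called, protocol C minus A turned to -4.52 with medians and early minus late freezing to 5.75 with plain percents. With single libraries left out, PCR cycles 23 minus 25 ran from -7.38 to 9.86, turning at -0.554, -0.627, -1.65 and -7.38, 20 minus 25 from -12.9 to 3.41 and 20 minus 23 from -13.8 (without 23-cycle replicate 1) to -2.27. The cause was not tested. No paired analysis was possible because replicate numbers were given in accession order and pair no libraries. Depth cannot be read from calls.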
